A study of Mus musculus with 32 samples.

Results

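Collagen and laminin genes encode the main structural proteins of the extracellular matrix. Of 40392 genes in the deposited table of mouse basolateral amygdala, 55 carried the name of a collagen chain or of a laminin alpha, beta or gamma chain. The 46 with a mean of at least 0.2 FPKM (the authors' unit, scaled to gene length and library size) over all 32 libraries are described here. They comprised 14 basement membrane genes, namely 3 collagen IV chains and 11 laminin chains, and 10 fibrillar collagens. The other 22 were 7 fibril-associated, 5 beaded filament, 3 transmembrane, 2 network-forming short-chain and 2 multiplexin collagens, and 3 further chains. Just inside the threshold lay Col14a1 at 0.205 and Col17a1 at 0.208 FPKM, and just outside it Col22a1 at 0.182 FPKM. Col3a1, the type III fibrillar chain, followed at 0.142 FPKM.

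RNA-seq of polyadenylated RNA compared control mice with mice after social defeat stress, in which a mouse is attacked by an aggressive one, in 2 age classes. The 8 groups of 4 libraries each were adolescent control, adolescent defeat, adult control and adult defeat, each at day 1 and at day 21. Mice of 6 and 9 weeks are named in the design text, with no link to age class or day, and the starting event of the day count is unstated. The labels give no strain, genotype or drug. Whether replicates are different mice is also unstated, so the p-values reflect variation among libraries that could be technical.

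Collagen chains assemble as trimers that wind into a triple helix. Collagen IV forms the sheet-like network of basement membranes, which in brain surround the blood vessels and line the brain surface. Laminins are cross-shaped trimers of 1 alpha, 1 beta and 1 gamma chain that polymerise in the same membranes and bind integrins and dystroglycan on cells. Fibrillar collagens form the banded fibrils of connective tissue, which in brain are found mostly around larger vessels and in the meninges, and fibril-associated collagens decorate them.

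Library totals ranged from 53885799 to 82208892 counts, and all 46 members passed the filter on low counts. The pallial excitatory markers that the tissue should hold were present in every library: Slc17a7, the vesicular glutamate transporter of cortex-like neurons, ranged from 789 to 1279 CPM (TMM-scaled counts relative to library size), and Tbr1 from 50.3 to 96.6 CPM. Markers of striatum and central amygdala, among them Drd2 and Adora2a, were also present, with sums of 1370 to 2831 CPM. Their part in the results was not tested. Ttr, the transthyretin gene made by choroid plexus epithelium, was above 100 CPM in 11 libraries, at 415 to 2342 CPM, and between 1.07 and 85.3 CPM in the other 21. Those 11 libraries were all 4 of adolescent defeat day 1, 2 of adult defeat day 1, and 1 each of adolescent control day 1, adult control day 1, adolescent control day 21, adult control day 21 and adolescent defeat day 21. In bulk tissue, fewer cells of a type and less RNA per cell cannot be told apart.

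Levels between genes are compared in FPKM. The highest member was Col6a1, a chain of the beaded filament collagen VI, with a mean of 34.9 FPKM and a range over libraries of 29.4 to 41.1. It alone made up 27.1% of the summed mean FPKM of the members, 128.6. Next came both chains of the common collagen IV trimer, Col4a2 at 13.5 and Col4a1 at 7.24 FPKM. Col9a3, a chain of the fibril-associated collagen IX, had 6.98 FPKM, and the transmembrane collagens Col23a1 and Col25a1 had 5.74 and 5.59 FPKM. These 3 were followed by Col16a1, a fibril-associated collagen, at 5.45 FPKM. Col11a2 led the fibrillar collagens at 5.37 FPKM, Lamc1 the laminins at 4.40 FPKM, and Col6a2, a second collagen VI chain, completed the 10 highest at 4.20 FPKM. The 5 highest members held 53.1% of the summed level, and 22 of 46 averaged more than 1 FPKM.

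Among the laminins, the gamma 1 chain Lamc1 and the beta chains Lamb2, at 3.92 FPKM, and Lamb1, at 2.92 FPKM, were the highest. The alpha chains lay lower. Lama5, the alpha chain of mature endothelial and epithelial membranes, had 1.14 FPKM, and Lama2, the chain of muscle and astrocyte endfoot membranes, had 0.695 FPKM. Lama4, the other endothelial alpha chain, had 0.319 FPKM, and Lama1 had 0.289 FPKM. The classical fibrillar chains of collagen I were also low, with Col1a1 at 0.625 and Col1a2 at 0.428 FPKM. Among fibrillar collagens, Col5a1 at 3.18 and Col11a1 at 1.85 FPKM followed Col11a2.

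**Figure D1:**
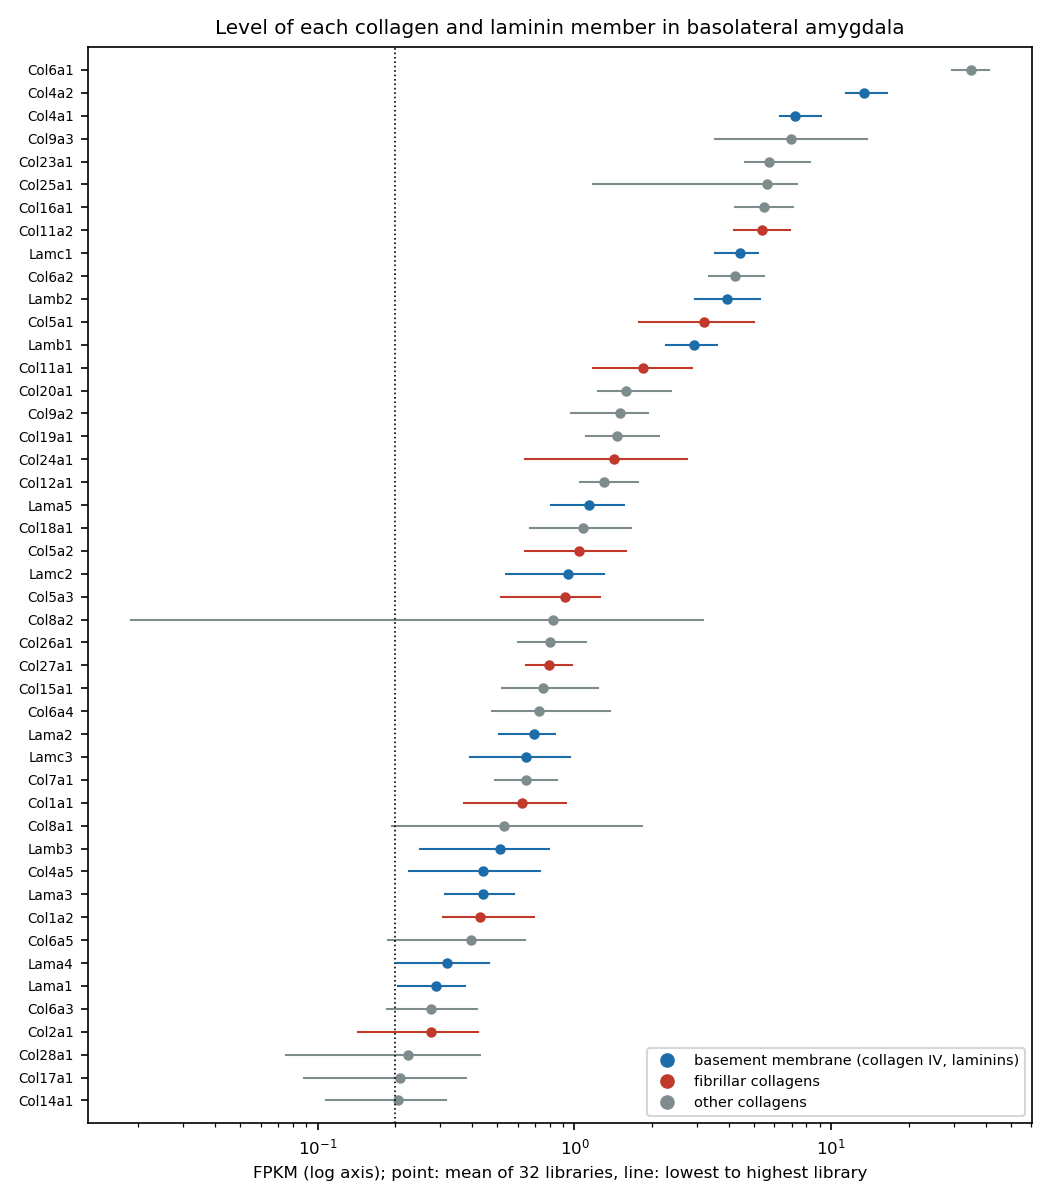
FPKM of each of the 46 members on a log axis, with the mean of 32 libraries as a point, the lowest to highest library as a line and the 0.2 FPKM threshold dotted. Col6a1 stands highest at 34.9 FPKM, and Col8a2 has the longest line.

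Related chains can be set against each other in the same library. The collagen pairs share a trimer, while Lamb1 and Lamb2 are alternative beta chains, of which a laminin holds 1. The FPKM ratio of Col4a1 to Col4a2 was 0.539 ± 0.035 (SD, n = 32 libraries), with a range of 0.485 to 0.606 and group means from 0.504 in adult defeat day 1 to 0.589 in adolescent defeat day 1. The genes lie head to head on chromosome 8, with positions 11248423 to 11362826 on the minus strand for Col4a1 and 11362805 to 11499287 on the plus strand for Col4a2 in the deposited table, whose build is not stated. They overlap by 22 bases at their starts. No source used here states whether strand was used in counting, and the overlap is short beside either gene. The ratio of Col6a1 to Col6a2 was 8.33 ± 0.63 and that of Lamb1 to Lamb2 was 0.756 ± 0.12. The ratio of Col1a1 to Col1a2 was 1.5 ± 0.34 and spanned 0.894 to 2.36.

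Members differed in how much they varied across the 32 libraries. Col6a1, Col4a2 and Col4a1 were the steadiest, with 1.41-fold, 1.43-fold and 1.45-fold between their lowest and highest library in CPM. Col8a2, a short-chain collagen of the endothelial membrane of the cornea, varied most: its counts ran from 7 to 1083 and its CPM from 0.103 to 15. Its partner chain Col8a1 spanned 1.66 to 15.4 CPM. The share of log2 variance that lay between the 8 groups was highest for Lama4, at 82%, followed by Col20a1 at 66.3%, Col4a5 at 55.4% and Col5a1 at 55.0%.

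For the member with the highest FPKM in each class, group means in CPM are given in the order adolescent control, adolescent defeat, adult control and adult defeat. Col6a1 averaged 168, 172, 146 and 167 CPM at day 1 and 160.4, 176, 159 and 169 CPM at day 21, with SDs of 6.63 to 17.5 over 4 libraries. Col4a2 averaged 92.8, 88.2, 95.3 and 100.3 CPM at day 1 and 99.0, 93.2, 101 and 101 CPM at day 21, with SDs of 4.86 to 12.1. In both genes the group means lay close together. Lamc1 averaged 41.6, 42.0, 37.1 and 39.2 CPM at day 1 and 37.5, 41.5, 39.1 and 36.7 CPM at day 21, with SDs of 0.677 to 4.22. Col11a2 averaged 43.4, 42.6, 34.8 and 41.5 CPM at day 1 and 39.0, 43.1, 36.9 and 38.5 CPM at day 21, with SDs of 2.36 to 6.59. The fibrillar leader was lowest in adult control day 1. Col23a1 averaged 38.0, 34.8, 33.5 and 33.7 CPM at day 1 and 36.0, 38.7, 37.0 and 32.8 CPM at day 21, with SDs of 2.34 to 9.23. Col26a1 averaged 8.10, 7.24, 6.59 and 6.71 CPM at day 1 and 7.49, 7.57, 7.20 and 6.49 CPM at day 21, with SDs of 0.734 to 1.70. The group means of these 2 members ran from 32.8 to 38.7 CPM and from 6.49 to 8.10 CPM. Their single libraries spanned 1.79-fold and 1.81-fold. Col18a1, the multiplexin from which endostatin is cut, averaged 7.07, 9.19, 8.74 and 9.20 CPM at day 1 and 7.36, 8.22, 7.98 and 7.76 CPM at day 21, with SDs of 0.738 to 2.97. Col9a3 averaged 28, 43.7, 28.4 and 36.6 CPM at day 1 and 25.7, 28.5, 21 and 20.8 CPM at day 21, with SDs of 2.39 to 18.0. Col8a2 averaged 3.08, 7.89, 5.57 and 7.49 CPM at day 1 and 2.73, 1.60, 1.61 and 1.96 CPM at day 21, with SDs of 1.27 to 6.37. For the last 2 genes the SDs of several day 1 groups came close to or passed the differences between group means.

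Social defeat was tested against control within each age class and day, and as the mean of the 4 effects. No collagen or laminin passed an adjusted p of 0.05 in any of these 5 comparisons (edgeR quasi-likelihood test, Benjamini-Hochberg over 23778 genes). Of all genes tested, 0.0547% passed for adolescents at day 1, 0.0126% for adolescents at day 21, 0.353% for adults at day 1, 0.00841% for adults at day 21 and 0.0589% in the averaged comparison. At an unadjusted p under 0.05 from edgeR, 4 members were higher and 2 lower in adolescents at day 1, beside 7.45% of all genes, and 1 higher and 2 lower at day 21, beside 5.72%. In adults 4 were higher and 3 lower at day 1, beside 9.51%, and 0 higher and 2 lower at day 21, beside 6.46%. Averaged over the groups, 4 were higher and 1 lower, beside 8.28% of all genes, and DESeq2 called 1 member, Col20a1, in that comparison and 0 in the 4 single ones. The median log2 change of the members was 0.03 and 0.01 in adolescents at days 1 and 21, and 0.07 and -0.01 in adults, beside medians within 0.01 of 0 over all genes. Of the basement membrane members, 12 of 14 lay above 0 at day 1 and 9 of 14 at day 21 in adolescents, against 9 and 6 of 14 in adults. The 11 laminins were all above 0 in adolescents at day 1, with a median of 0.07. All were measured in the same libraries, so such counts are not of independent results. In the same comparison vessel markers summed to 264 to 316 CPM after defeat and 214 to 259 CPM in controls, and 10 mural cell markers to 131 to 152 and 105 to 129 CPM, both without overlap, and their part in the laminin values was not tested. Of the fibrillar collagens, 4 and 5 of 10 lay above 0 in adolescents, and 6 of 10 at either day in adults.

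**Figure D2:**
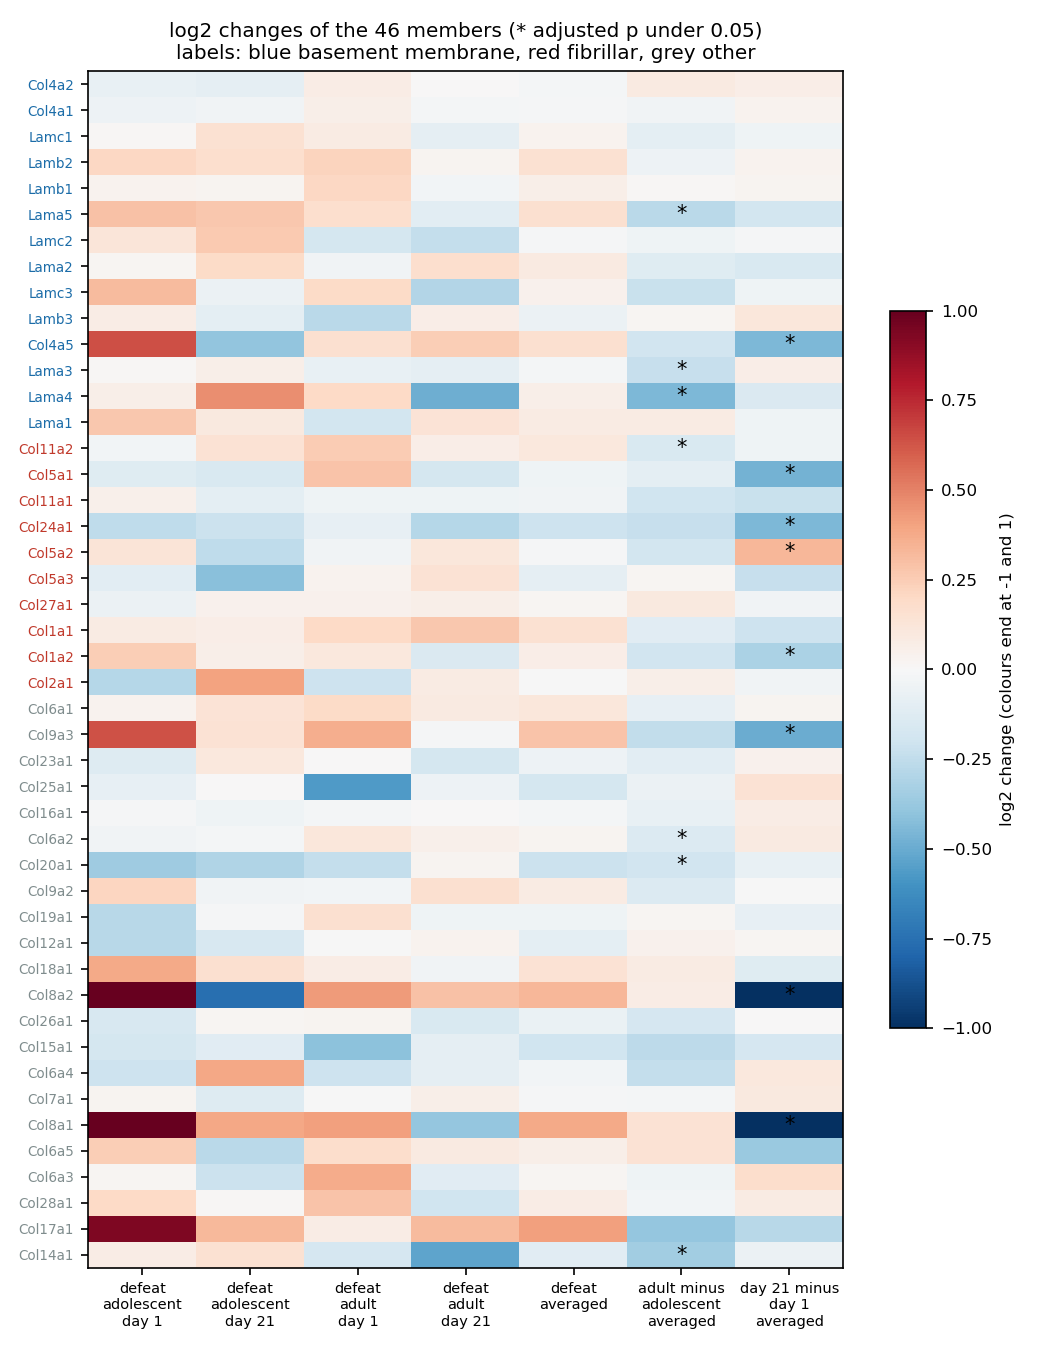
Log2 changes of the 46 members (rows, grouped by basement membrane, fibrillar and other) in the 4 defeat comparisons, the averaged defeat effect, the age class difference and the day difference, with red for higher and an asterisk where the adjusted p was under 0.05. The defeat columns hold no asterisk, the age class column holds 7 and the day column holds 8.

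Lama4, the laminin alpha 4 chain of endothelial basement membranes, was the member called for a defeat effect that differed between age classes. That call did not hold under most of the alternatives that tested it, given below. In adolescents at day 21 the controls had 4.03, 4.57, 3.71 and 3.09 CPM and the defeated mice 5.44, 4.67, 4.96 and 6.13 CPM. Every defeated library was above every control. In adults at day 21 the controls had 3.87, 3.84, 4.21 and 4.15 CPM and the defeated mice 3.17, 2.76, 2.75 and 2.76 CPM, so that every defeated library was below every control. The log2 differences were 0.46 ± 0.12 (SE) in adolescents, with an adjusted p of 0.463, and -0.49 ± 0.13 in adults, with an adjusted p of 0.259, both from edgeR. Neither passed on its own. The test of the difference between them gave -0.95 ± 0.18 on the log2 scale with an adjusted p of 0.0331 from edgeR, and Lama4 was the 1 member called where 0.0252% of all genes were, and 0.0168% of all genes were called in its direction. At an unadjusted p under 0.05, which 7.28% of all genes reached, this comparison held 4 further members, Lamc1, Col20a1, Col5a3 and Col14a1, with adjusted p of 0.639 to 0.672.

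The summed vessel markers of the same groups overlapped between defeat and control in both age classes, and the sums were not tested. The summed CPM of 12 endothelial markers, among them Cldn5 and Pecam1, was 214 to 277 in adolescent control day 21 and 238 to 309 in adolescent defeat day 21. It was 269, 284, 295 and 289 CPM in adult control day 21 and 331, 185, 198 and 185 CPM in adult defeat day 21. Thus 3 adult defeated libraries were low in both Lama4 and vessel markers, while the fourth had the highest vessel sum of the 32 libraries and a Lama4 level of 3.17 CPM. With the vessel score as a covariate the Lama4 difference was -0.56, with an adjusted p of 0.377 from edgeR. It kept its size but did not pass with upper quartile factors (-0.93, adjusted p 0.0541), no filter (-0.94, 0.0581), a replicate block (-0.94, 0.0752), only the groups compared (-0.95, 0.112) or without high-Ttr libraries (-0.93, 0.259). Without 1 library of the 16 the difference lay between -1.04 and -0.86, with adjusted p of 0.0126 to 0.127. It passed without replicate 2 of either adolescent group or replicate 1 of either adult group, and did not pass without any of the other 12 libraries.

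At day 1 Lama4 showed no such opposition. Adolescent controls had 5.33, 4.60, 5.40 and 4.80 CPM and defeated adolescents 5.31, 5.08, 5.2 and 5.36 CPM, and the groups overlapped. Adult controls had 2.64, 3.41, 3.53 and 4.06 CPM and defeated adults 3.6, 3.53, 4.55 and 3.95 CPM, also with overlap. The difference between age classes in the defeat effect was 0.14 ± 0.18 at day 1, with an adjusted p of 0.955 from edgeR. No member passed in that comparison, where 0.0168% of all genes did. It held 0 members at an unadjusted p under 0.05, beside 6.62% of all genes, and 0 by DESeq2. Between days, the defeat effect on Lama4 in adults differed by -0.69 ± 0.18 with an adjusted p of 0.0714 from edgeR and 0.0238 from DESeq2, and edgeR called 0 of 46 members beside 0.622% of all genes, with 2 at an unadjusted p under 0.05 beside 10.6%. In adolescents edgeR called 0 members beside 0.00421% of all genes, with 3 at an unadjusted p under 0.05 beside 4.97%, and 0 by DESeq2.

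**Figure D3:**
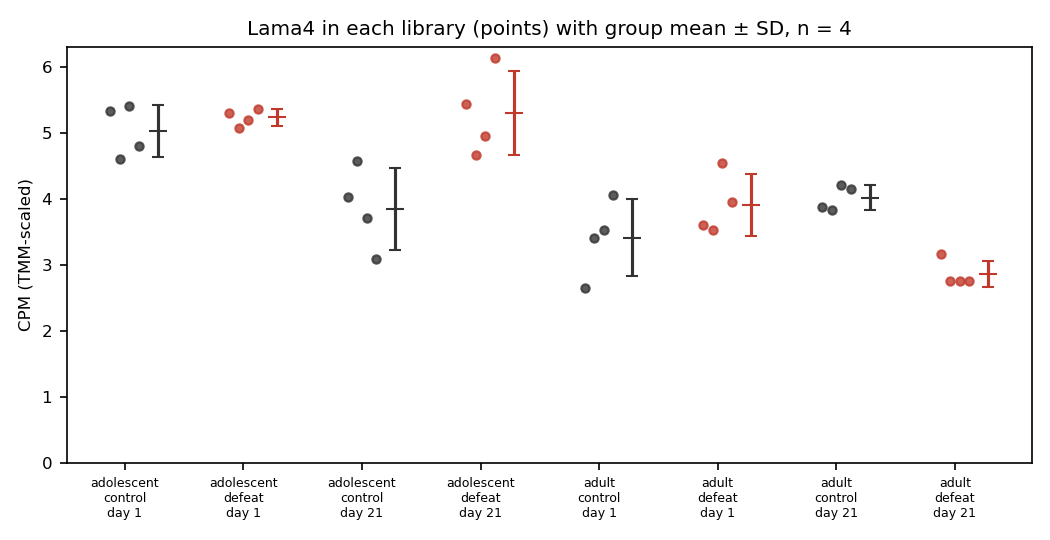
Lama4 in CPM for each library (points) with the group mean and SD (bar, n = 4), controls in black and defeat in red. Adolescent defeat day 21 lies at 4.67 to 6.13 CPM and adult defeat day 21 at 2.75 to 3.17 CPM, without overlap.

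Col20a1, a fibril-associated collagen, was the member nearest to a shared defeat effect. At day 1 adolescent controls had 12.9, 10.1, 10.7 and 10.6 CPM and defeated adolescents 9.44, 7.12, 9.08 and 9.02 CPM. Adult controls had 8.80, 8.78, 9.76 and 8.42 CPM at day 1 and defeated adults 8.0, 7.96, 6.84 and 7.49 CPM. At day 21 adolescent controls had 9.25, 10.1, 10.9 and 9.34 CPM and defeated adolescents 7.35, 8.76, 8.85 and 7.20 CPM. In these 3 pairs of groups all defeated libraries were below all controls. In adults at day 21 the ranges overlapped, with 7.26 to 8.51 CPM in controls and 7.17 to 9.18 CPM after defeat. The averaged log2 difference was -0.22 ± 0.05, with a p of 0.000202 and an adjusted p of 0.0891 from edgeR and an adjusted p of 0.0157 from DESeq2. Over the other alternatives, libraries left out singly aside, its adjusted p ran from 0.0526 to 0.873. Col20a1 overlaps the annotated gene 9230112E08Rik by 741 bases on the same strand, which averaged more counts, 1000 against 589, so that its own count is uncertain.

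The RefSeq sequences of the 250 bases before the annotated start (build GRCm38.p6) were at hand for 33 of the 46 members. They were searched on both strands for 6 motifs: the TATA box (TATAAA), the CCAAT box, the GC box (GGGCGG), the E-box (CACGTG), the AP-1 site (TGANTCA) and the spaced core of glucocorticoid receptor sites (ACANNNTGT). Col20a1 is shown because it was the 1 member of 33 with ACANNNTGT, in capitals, at 156 and 14 bases before the start, at chr2:180986285-180986534 on the plus strand. The motif was present in 5.91% of 27025 promoters of this length, and a match is a description of letters, not of binding.
Col20a1: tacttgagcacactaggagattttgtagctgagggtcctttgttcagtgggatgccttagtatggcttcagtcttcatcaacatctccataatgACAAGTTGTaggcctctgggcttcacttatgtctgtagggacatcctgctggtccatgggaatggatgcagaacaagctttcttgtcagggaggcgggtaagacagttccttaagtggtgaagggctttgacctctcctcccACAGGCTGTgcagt

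Other members with a small unadjusted p after defeat are given as values. Col6a1 was 0.11 ± 0.03 higher on the log2 scale in the averaged comparison, with an adjusted p of 0.265. Its largest difference was in adults at day 1, where controls had 146, 138, 154 and 147 CPM and defeated mice 186, 155, 161 and 167 CPM. The 2 groups did not overlap, with an adjusted p of 0.283. Lamb2, Col17a1 and Col11a2 had averaged differences of 0.16, 0.41 and 0.11, with adjusted p of 0.479 to 0.596. In adolescents at day 1, Col4a5, the X-linked collagen IV chain, differed by 0.64 ± 0.22, Col17a1 by 0.93 ± 0.33, Col9a3 by 0.64 ± 0.29 and Col12a1 by -0.28 ± 0.11, with adjusted p of 0.420 to 0.625. All 4 defeated libraries of that comparison held choroid plexus RNA, with 950 to 1392 CPM over 12 markers against 25.0 to 1130 in controls. With the choroid plexus score as a term in the fit, Col4a5 was at 0.27, Col17a1 at 0.55, Col9a3 at 0.08 and Col12a1 at -0.25, with adjusted p of 0.769 to 0.977. In adolescents at day 21, Col5a3 differed by -0.42, Lamc1 by 0.15 and Col6a1 by 0.14, with adjusted p of 0.805 to 0.875. In adults at day 21, Col14a1 differed by -0.53, Lamc3 by -0.29, Lama2 by 0.17 and Col1a1 by 0.27, with adjusted p of 0.700 to 0.876.

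Col25a1, the transmembrane collagen that associates with amyloid, had 1 library far below all others. Adult defeat day 1 had 69.4, 79.2, 74.1 and 16.6 CPM, while the 28 libraries of the other groups lay between 68.8 and 102.8 CPM. Adult control day 1 had 85.0, 103, 90.3 and 76.7 CPM. The log2 difference in adults at day 1 was -0.57 ± 0.22 with all libraries and -0.25 ± 0.08 without the low one, with adjusted p of 0.362 and 0.230. Col11a2 and Col6a3 were 0.25 and 0.37 higher in the same comparison, with adjusted p of 0.411 and 0.470.

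Age class was compared among controls at each day and as an average over treatment and day. These comparisons share libraries with those of defeat. In the averaged comparison 7 members were lower in adults and 0 higher, beside 23.0% of all genes, with 11% of all genes called lower and 12% called higher. The share of members called, 7 of 46, was thus below that of all genes. Of the members, 33 of 46 lay below 0 and their median log2 difference was -0.10, against -0.01 over all genes. The laminins among the 7 were Lama4 at -0.45 ± 0.06 with an adjusted p of 2.35e-06, Lama5 at -0.27 ± 0.08 with 0.0117, and Lama3 at -0.23 ± 0.08 with 0.0241. Of the other alpha chains, Lama2 was at -0.12 and Lama1 at 0.09, with adjusted p of 0.11 and 0.551. The 4 others called were Col20a1 at -0.19, Col14a1 at -0.34, Col6a2 at -0.14 and Col11a2 at -0.15, with adjusted p of 0.00634 to 0.0384 from edgeR. Of the 14 basement membrane members 3 were lower, of the 10 fibrillar collagens 1, and no collagen IV chain passed.

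For Lama5 the averaged levels were 12.7 ± 2.6 CPM in 16 adult and 15.4 ± 2.5 CPM in 16 adolescent libraries, and the ranges overlapped. Col14a1, a fibril-associated collagen, had 1.39 ± 0.32 CPM in adults and 1.75 ± 0.36 CPM in adolescents, with counts of 45 to 181 per library. Lama3 had 4.71 ± 0.78 and 5.52 ± 0.55 CPM, Col6a2 had 36.0 ± 3.2 and 39.7 ± 4.0 CPM, and Col11a2 had 37.9 ± 4.6 and 42.0 ± 4.5 CPM. The differences were of about the size of the SDs. With 1 of the 32 libraries left out, Col11a2 passed in 15 fits (adjusted p of 0.00947 to 0.0801) and Col6a2 in 26 (0.00837 to 0.056). Lama3 did not pass without adolescent control day 21 replicate 1 (0.0522). Lama4, Col20a1, Lama5 and Col14a1 passed in all 32. With the vessel score as a covariate 4 members passed, Lama4, Lama3 and Col20a1 lower and Col4a2 higher. Without the libraries above 100 CPM of Ttr, averaged over the 3 pairs of groups that remain, 3 passed, namely Lama4, Col6a2 and Col9a3. A covariate or fewer libraries can also change the share of all genes called, which is not given for these fits.

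The averaged Lama4 difference did not come equally from all groups. Among controls at day 1 it was -0.56 ± 0.12, with an adjusted p of 0.00705 from edgeR and no overlap, and Lama4 was the 1 member called beside 4.38% of all genes, 1.84% lower and 2.54% higher. Vessel markers summed to 214 to 259 CPM in those adolescent controls and to 150.4 to 223 CPM in the adult controls, and with their score as a covariate the difference was -0.38, with an adjusted p of 0.0714. Fitted on those groups only, it was again -0.56 with an adjusted p of 0.105, and without high-Ttr libraries -0.42 with 0.251. Without adult control day 1 replicate 1 its adjusted p was 0.0502. Among controls at day 21 the Lama4 difference was 0.06 ± 0.12, with an adjusted p of 0.858. At day 21 no member passed beside 6.06% of all genes, with 4 lower and 0 higher at an unadjusted p under 0.05, beside 19.0%, and 0 called by DESeq2. Those 4 were Col20a1 at -0.29, Col4a5 at -0.62, Col17a1 at -0.88 and Col5a2 at -0.42, with adjusted p of 0.0898 to 0.137. At day 1, Col20a1 at -0.31, Col11a2 at -0.32, Col6a1 at -0.20 and Col24a1 at -0.69 had adjusted p of 0.0837 to 0.15.

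Day 21 was compared with day 1 among controls of each age class and as an average over age class and treatment. In the averaged comparison 7 members were lower and 1 higher at day 21, beside 9.30% of all genes called, 5.12% lower and 4.18% higher. Of the 10 fibrillar collagens 9 lay below 0, with a median of -0.22, and 3 were called lower and 1 higher. Of the 14 basement membrane members 8 lay below 0, with a median of -0.02, and 1 was called, Col4a5. The median of all genes was -0.00189.

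Col5a1, the collagen V chain that nucleates fibrils, fell most clearly. At day 1 it had 45.1, 31.2, 34.8 and 40.1 CPM in adolescent controls, 39.8, 29.1, 34.7 and 35.1 CPM in defeated adolescents, 35.4, 29.2, 28.5 and 22.9 CPM in adult controls and 37.2, 30.9, 45.7 and 27.3 CPM in defeated adults. At day 21 it had 31.4, 24, 29.7 and 19.4 CPM, 18.8, 21.5, 26.0 and 27.6 CPM, 29.7, 30.8, 26.1 and 16.9 CPM, and 20.3, 25.1, 23.2 and 23.2 CPM in the same groups. Defeated mice of both age classes did not overlap between days, and controls of both did. The averaged log2 difference was -0.47 ± 0.09 with an adjusted p of 0.000822 from edgeR. Col24a1, another fibrillar collagen, fell by 0.45 with an adjusted p of 0.0274, from 13.6 ± 3.9 to 9.77 ± 3.4 CPM over 16 libraries each. Without adolescent defeat day 1 replicate 3 its adjusted p was 0.0527. Col1a2, the alpha 2 chain of collagen I, fell by 0.32 with an adjusted p of 0.0209.

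Col5a2, which forms trimers with Col5a1, moved the other way. It averaged 9.55 ± 1.5 CPM over the 16 day 1 libraries and 12.1 ± 2.3 CPM over the 16 day 21 libraries, a log2 difference of 0.33 ± 0.08 with an adjusted p of 0.00871 from edgeR. In adolescent controls it had 13.2, 8.72, 9.68 and 6.57 CPM at day 1 and 14.6, 13.4, 16.3 and 12.5 CPM at day 21. The ranges met through 1 day 1 library, and the difference of 0.57 ± 0.16 had an adjusted p of 0.0842 from edgeR. DESeq2 called it. In defeated adults it had 9.57, 7.55, 9.01 and 9.83 CPM at day 1 and 13.5, 12, 10.6 and 9.89 CPM at day 21, without overlap.

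**Figure D4:**
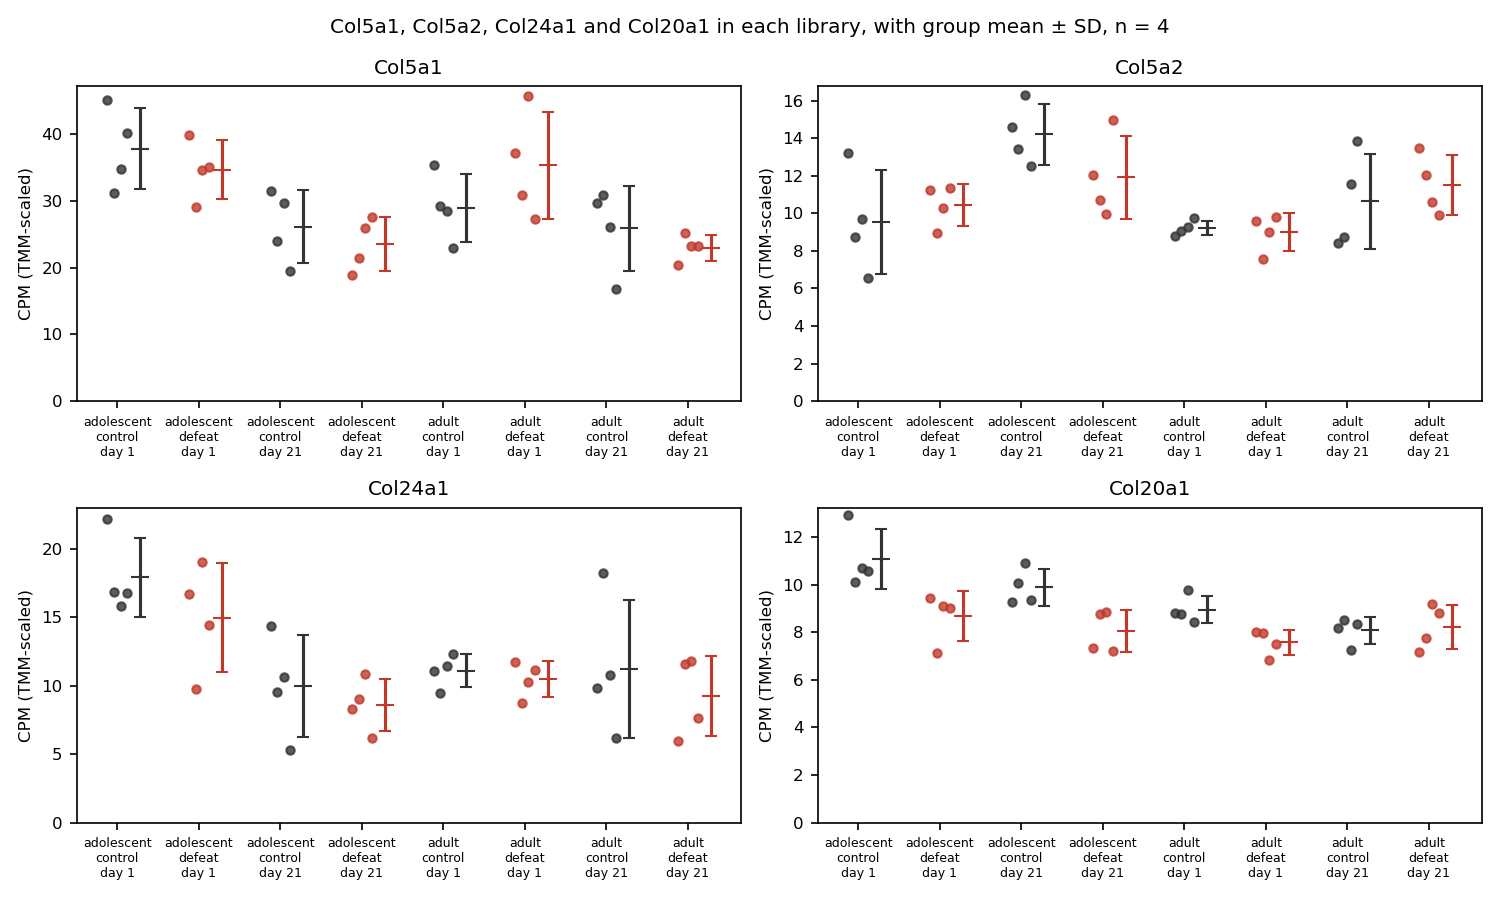
Col5a1, Col5a2, Col24a1 and Col20a1 in CPM for each library (points) with group mean and SD (n = 4), controls in black and defeat in red. Col5a1 is lower at day 21 than at day 1 in every pair of group means, while Col5a2 is higher.

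Within controls alone, edgeR called no member between days: 0 beside 0.925% of all genes in adolescents and 0 beside 0.858% in adults. At an unadjusted p under 0.05, 1 member was higher and 7 lower in adolescent controls, beside 11.8% of all genes, and 1 higher and 4 lower in adult controls, beside 12.9%. DESeq2 called 1 member, Col5a2, in adolescent controls and 0 in adult controls. In adolescent controls the smallest p after Col5a2 belonged to Col24a1 at -0.84, Lama4 at -0.39, Col5a1 at -0.53 and Col11a1 at -0.37, with adjusted p of 0.128 to 0.299. In adult controls it belonged to Col4a5 at -0.61, Col17a1 at -0.89, Col6a3 at 0.38, Col8a2 at -1.80 and Lama2 at -0.23, with adjusted p of 0.218 to 0.358.

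The remaining members called lower at day 21 were Col8a1, Col8a2, Col9a3 and Col4a5, and all 4 were high in the libraries with high Ttr. Their averaged log2 differences were -1.08 ± 0.27, -1.55 ± 0.40, -0.50 ± 0.15 and -0.45 ± 0.11, with adjusted p of 0.00949 to 0.0274 from edgeR. Col9a3 did not pass without adolescent control day 1 replicate 3, adult control day 1 replicate 1 or adult defeat day 1 replicate 3, with adjusted p of up to 0.0615. Of the 11 libraries above 100 CPM of Ttr, 8 were of day 1 and 3 of day 21. In adult control day 1, where 1 library had 2342 CPM of Ttr, Col8a1 had 14.6, 4.06, 2.90 and 1.88 CPM, with the first value in that library. Col8a2 had 15, 3.78, 1.89 and 1.61 CPM in the same order. In adult defeat day 1, Col8a1 had 2.61, 10.7, 15.4 and 2.45 CPM, and the middle 2 libraries were again those with high Ttr.

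The median CPM of Col8a2 was 6.81 in the 11 libraries and 1.61 in the other 21, a ratio of 4.22. The ratio was 3.05 for Col8a1, 1.80 for Col9a3, 1.78 for Col17a1, 1.75 for Col4a5, 1.42 for Lama5, 1.32 for Col18a1 and 1.31 for Lama4. Its median over the 46 members was 1.03, and Col4a2, at 0.915, and Col1a1, at 1.16, were close to 1. All of these ranges overlapped between the 11 and the 21 libraries. Markers of meningeal fibroblasts, such as Dcn and Igf2, also differed by day, with a sum of 45.0 to 136 CPM in day 1 and 37.7 to 68.0 CPM in day 21 libraries. Markers of oligodendrocytes summed to 6050 to 11525 CPM at day 1 and 3957 to 8039 CPM at day 21, and their part in these results was not tested.

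With a choroid plexus score in the fit, 1 of the 8 day calls remained, Col5a1 at -0.40 with an adjusted p of 0.0231 from edgeR, and Col8a1 was at -0.08, Col8a2 at -0.39, Col9a3 at -0.02, Col4a5 at -0.14 and Col1a2 at -0.21. Col5a2 at 0.31 and Col24a1 at -0.49 did not pass either, but their differences were about as large as without the score. With the meningeal fibroblast score, 0 remained, and Col5a1 was at -0.37 with an adjusted p of 0.103 and Col5a2 at 0.31. With the vessel score 3 of the 8 passed, Col5a1, Col4a5 and Col1a2, and the other 5 were between -1.47 and 0.26 with adjusted p of 0.0575 to 0.135. Without the libraries above 100 CPM of Ttr, averaged over the 3 pairs of groups that remain, 0 of 46 members passed beside 0.67% of all genes, with Col5a1 at -0.40, Col5a2 at 0.32, Col24a1 at -0.46, Col8a1 at -0.04 and Col4a5 at 0.00632. With all libraries 9.30% of all genes were called, so the loss of calls is not particular to the members.

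**Figure D5:**
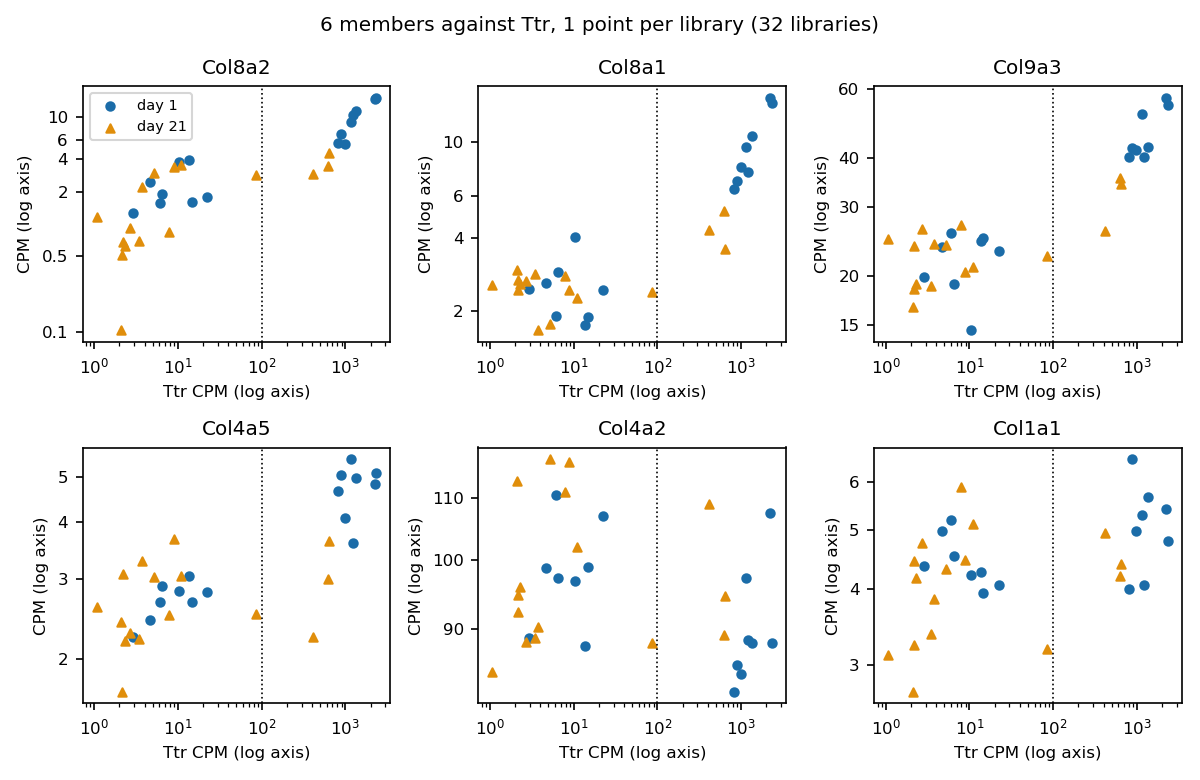
CPM of 6 members against CPM of Ttr in the 32 libraries, both on log axes, with day 1 as circles, day 21 as triangles and the 100 CPM line dotted. Col8a2, Col8a1, Col9a3 and Col4a5 are higher to the right of the line (median ratios 4.22, 3.05, 1.80 and 1.75), while Col4a2 (0.915) and Col1a1 (1.16) are not set apart.

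The promoters of the short-chain collagens are shown because these 2 genes varied most, 145-fold for Col8a2 and 9.26-fold for Col8a1 between single libraries. Both were higher in the libraries with high Ttr, and any bearing of the motif on their levels was not tested. GGGCGG, the GC box that Sp1-type factors can bind, or its complement CCGCCC is in capitals, and each window holds it 4 times. The motif was present in 63.6% of the 33 member promoters and in 32.9% of all 27025. The members had passed an FPKM threshold. The 27025 were not selected by expression or matched in GC content, so these shares are not a like comparison. The windows are chr16:57754738-57754987 on the minus strand for Col8a1 and chr4:126286544-126286793 on the plus strand for Col8a2 (GRCm38.p6), and in Col8a2 the last pair of matches overlaps.
Col8a1: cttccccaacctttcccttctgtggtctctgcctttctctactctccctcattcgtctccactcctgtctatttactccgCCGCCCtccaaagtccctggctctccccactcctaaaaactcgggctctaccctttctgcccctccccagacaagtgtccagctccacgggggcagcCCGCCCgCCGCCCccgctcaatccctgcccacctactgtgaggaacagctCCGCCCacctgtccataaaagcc
Col8a2: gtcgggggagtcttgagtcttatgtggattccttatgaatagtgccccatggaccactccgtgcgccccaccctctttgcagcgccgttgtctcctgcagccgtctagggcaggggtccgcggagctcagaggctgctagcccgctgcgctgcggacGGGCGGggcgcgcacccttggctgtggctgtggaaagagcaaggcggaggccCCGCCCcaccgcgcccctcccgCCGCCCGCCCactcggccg

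Members were also compared with the vessel and mural cell scores, the mean log2 CPM of 12 endothelial and 10 mural markers. Deviations from the group means were correlated over 32 libraries, with 92 pairs computed and permutation p-values within groups. Basement membrane members had a median Pearson r of 0.322 with the vessel score, with a range of -0.138 to 0.804, and the other 32 members a median of 0.022. After adjustment, 3 members passed by both coefficients, and all were laminins. Genes other than the members were not correlated with these scores, so the share of all genes that would pass is unknown. Lamb2, the beta 2 chain of vascular membranes, had r = 0.804 and rho = 0.714, with permutation p of 0.00032 and 0.00059 and adjusted p of 0.00981 and 0.0136, and r was 0.683 without the 2 libraries farthest from the median score. Lama4 had r = 0.681 and rho = 0.709, both with a permutation p of 1e-05, the smallest the 100000 permutations can give, and r was 0.675 without those 2 libraries. Lamc3, the gamma 3 chain, had r = 0.664 and rho = 0.682, with adjusted p of 0.0195 and 0.00675, and r was 0.686 without them. With the mural score, Lama4 passed by both coefficients, at r = 0.688 and rho = 0.739. For Col4a2, chosen as the leading collagen IV chain among 36 pairs, r with the vessel score was 0.425 and the adjusted p was 0.109, and for Lamc1 r was 0.516 with 0.0953. Those 36 pairs also held the choroid plexus and meningeal fibroblast scores, and only pairs with these passed by both coefficients. With the choroid plexus score r was 0.909 for Col9a3 and 0.852 for Col8a2, both with a permutation adjusted p of 0.00018. Col9a3 had r = 0.785 with the meningeal fibroblast score, with 0.0024. These libraries share dissection and depth as well as cell content.

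Other genes of matrix assembly were read from 4 lists. Among 29 genes of collagen processing, 7 were higher and 3 lower in adults in the averaged age comparison, in which 23.0% of all genes were called. P4ha1 and P4ha2, the catalytic chains of prolyl 4-hydroxylase, which stabilises the triple helix, were 0.65 ± 0.04 and 0.44 ± 0.04 higher, with adjusted p of 4.98e-13 and 1.44e-09 from edgeR. Of the procollagen N-proteinases, Adamts2 differed by 0.37 and Adamts3 by -0.61 on the log2 scale. Among 16 receptors 1 was higher and 3 lower, namely Itga10, a collagen-binding integrin chain, at 0.86 ± 0.08, the collagen receptor Ddr1 at -0.29, Itgb1 at -0.10 and Mrc2 at -0.20. Among 12 other basement membrane genes 0 were higher and 2 lower, Egfl7 at -0.24 and Nid1, which links laminin to collagen IV, at -0.22. Among 19 proteases and inhibitors 3 were higher and 2 lower, among them Mmp14 at 0.27 and its inhibitor Reck at -0.36. For receptors, basement membrane genes and proteases, these shares were near that of all genes.

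Between days, 3 of 29 processing genes were higher and 5 lower at day 21 in the averaged comparison, where 4.18% of all genes were higher and 5.12% lower, with P3h3 at 0.23, P4ha1 at 0.21, P3h4 at -0.25 and Plod2 at -0.33. Of the 12 other basement membrane genes 4 were lower and 0 higher: Nid1 at -0.30, Nid2 at -0.60, Npnt at -0.29 and Sparc at -0.19. Of the 16 receptors 5 were lower and 0 higher, with Ddr1 at -0.36, Itga7 at -0.33, Ddr2 at -0.34 and Itgb1 at -0.15. Of the 19 proteases and inhibitors 3 were lower and 0 higher, namely Adamts4 at -0.57, Mmp2, a gelatinase, at -0.42 and Mmp16 at -0.20. The meningeal and choroid plexus markers given above reached their highest levels at day 1, and their part in these lists was not tested. Across the 4 single defeat comparisons, 1 gene of the 4 lists passed: Mmp14, the membrane-bound collagenase, was -0.55 ± 0.10 in adolescents at day 1, with an adjusted p of 0.0355 from edgeR, beside 0.0547% of all genes. All 4 defeated libraries of that comparison were high in Ttr. The call did not hold with the choroid plexus score in the fit, where 2 genes passed and 0 of them were lower, nor with the meningeal fibroblast score, no filter or only the groups compared, where 0 genes passed.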

How the data were processed

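Raw read counts and FPKM values for 40392 mouse genes in 32 libraries were deposited by the authors in 1 table. Whole-number counts were deposited unnormalised, and FPKM was computed by the authors. Per the submitters' processing notes, the tools were cutadapt 1.9, HISAT2 2.0.4, StringTie 1.3.4d and edgeR; the notes name hg38 although the gene identifiers are mouse, so table positions are given with no build. Each of the 64 per-library columns was assigned to its sample from its name. RNA was selected with oligo(dT) beads, per the labels' protocols. No source used here states whether counting used strand.

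Counts were tested with edgeR 4.0.16 (R 4.3.3): default expression filter within groups (23778 genes), TMM factors, 1 model with a mean for each of the 8 groups (24 residual degrees of freedom), and 2-sided quasi-likelihood F tests for 15 comparisons. P-values were adjusted by Benjamini-Hochberg over all genes tested, with a threshold of 0.05. Standard errors are the size of the log2 change over the root of F. A table of CPM per library uses TMM-scaled counts. The tests were checked on simulated counts.

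The members, gene lists, tests and most alternatives were chosen with earlier results of these data known. Named genes were members past the threshold, or the 5 of smallest p where fewer than 5 passed, the leader of each class, the 10 highest members, and up to 4 called genes per list of partners. Alternatives were upper quartile factors, no filter, DESeq2 1.42.0, a mean FPKM minimum of 1, limma 3.58.1 with a pseudocount of 0.1 or 1 added to FPKM before log2 (genes reaching 1 FPKM in 4 or more libraries), only the groups compared, a replicate block, scores of choroid plexus, meningeal fibroblasts or vessel endothelium as covariates, no libraries above 100 CPM of Ttr, and each library left out in turn. Averages over 3 pairs of groups without those libraries, and the correlation of all members with 2 scores, were chosen after seeing the data. No replicate pair of a group agreed within sampling noise: chi-square per gene was 11.6 to 65.3 over 48 pairs.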

Additional observations from a re-analysis of the deposited data

Results flagged for a closer look

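Of 192 groups of 4 libraries examined for members described by library, 17 held a library far from the other 3, where chance alone gives about 1 in 20, or 9.6. For Col18a1 these were 5.72 CPM in adolescent control day 21 replicate 1 against 7.69 to 8.03 in the others, 10.2 CPM in adult control day 21 replicate 3 and 7.62 CPM in adult defeat day 1 replicate 4. Col25a1 was at 16.6 CPM in adult defeat day 1 replicate 4, where the others had 69.4 to 79.2, and at 93.1 CPM in adolescent control day 21 replicate 3. Adolescent defeat day 21 replicate 4 stood high in 3 members: Col6a1 at 195 CPM, Col6a2 at 49.2 CPM and Col4a1 at 72.1 CPM. Col24a1 was at 22.2 CPM in adolescent control day 1 replicate 1.

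Several of these libraries were among the 11 above 100 CPM of Ttr. In adult control day 1 replicate 1, with 2342 CPM of Ttr, Col4a5 was at 5.12 CPM and Col8a2 at 15 CPM. In adolescent control day 1 replicate 3 Col8a1 was at 7.90 CPM, and in adolescent defeat day 21 replicate 1 Col8a1 was at 5.18 and Col8a2 at 3.50 CPM. Lama3 was at 6.70 CPM in adolescent control day 21 replicate 1.

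Adult defeat day 21 replicate 1 was high in Lama4, at 3.17 CPM, and in Lama5, at 14.8 CPM, and it also had the highest vessel marker sum of its group, at 331 CPM against 185 to 198. For Lama4 the defeat effect at day 21 differed between age classes, with -0.951 on the log2 scale in the test of the difference itself (adjusted p of 0.0331 from edgeR). That call did not hold under 6 of the 9 alternatives that tested Lama4, nor without 12 of 16 libraries taken singly.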

How the results depend on the processing

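For the genes named, 752 of the recomputed log2 changes kept their direction and side of the threshold, 49 lost the call, 11 gained it and 4 reversed. The 752 include many changes not called in the main fit, which had no call to lose, so they do not measure how stable the calls were. Among the called ones, Lama4 by age class passed in 8 of 8 alternatives, Col5a1 by day in 9 of 11 and Col24a1 by day in 6 of 11. Lama4 for age class by defeat at day 21 passed in 3 of 9, the lowest share. The reversed ones were, between days, Col8a1 at 0.022 and Col9a3 at 0.0437 with the meningeal fibroblast score and Col4a5 at 0.00632 without libraries above 100 CPM of Ttr (3 pairs of groups), and Lamc3 after defeat in adults at day 21 at 0.0389 with the vessel score. The cause was not tested.

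The 7 members called by age class became 11 with upper quartile factors, 4 with the vessel score and 3 without libraries above 100 CPM of Ttr (3 pairs). The 8 called by day became 5 with the vessel score, 3 of them among the 8, and 5 with a mean FPKM of at least 1, where 24 of 46 members are not tested and 4 are among the 8, 1 with the choroid plexus score, and 0 with the meningeal fibroblast score or without those libraries. The 1 called among controls at day 1 became 4 with DESeq2, 2 with the meningeal fibroblast score, and 0 with limma on either pseudocount, which does not test Lama4, with the vessel score or without high-Ttr libraries. The 0 at day 21 became 1 with the choroid plexus score or only the groups compared. The 1 member whose defeat effect differed between age classes at day 21, Lama4, became 0 under 9 settings: both limma fits and the FPKM filter, which do not test Lama4, the vessel score, which reduced it to -0.56, and 5 that left it between -0.95 and -0.93: no filter, only the groups compared, upper quartile factors, no high-Ttr libraries, and the replicate block, where it was -0.94 with an adjusted p of 0.0752. DESeq2 turned 0 into 1 for day in adolescent controls, day by defeat in adults and averaged defeat. The share of all genes called also shifts with the setting and is not given here, so a changed count is not particular to the members.

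Without 1 library, counts ran from 4 to 10 for age class, 7 to 9 for day, 0 to 2 for adult against adolescent controls at day 1 and 0 to 1 at day 21, 0 to 1 for day in adolescent controls, age class by defeat at day 21 and day by defeat in adults, and 0 to 0 elsewhere. Replicate numbers did not pair the libraries (r of -0.143 to 0.112 over 112 same-number pairs, 3 above 0.1; 8 of 32 libraries correlated best with their own number), and the block changed no other count by over 1.5 times. In CPM, not scaled to length, the chain ratios were 0.609 for Col4a1 to Col4a2, 0.792 for Col1a1 to Col1a2, 4.38 for Col6a1 to Col6a2 and 1.23 for Lamb1 to Lamb2. A threshold of 1 FPKM leaves 22 members. Precision is lowest for members with few counts, such as Col8a2, with 7 in 1 library, and Col14a1.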
